A study of Capra hircus with 5 samples.

Results

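The neuromuscular junction is the synapse at which a motor nerve ending releases acetylcholine onto a muscle fibre, and its receptors are gathered under the nerve ending by a signalling scaffold on the muscle side. Acetylcholinesterase then clears the transmitter, and microtubule-associated proteins shape the axon that reaches the fibre. This account covers the 3 unigenes, of 118211 in the expression table, that the study's gene ontology annotation placed in its neuromuscular junction and synapse assembly classes and that the study had selected as changed after ovariectomy. They are comp38745_c0_seq1, which no source used here pairs with a gene symbol, comp88751_c0_seq1, paired with MUSK, and comp69579_c0_seq1, paired with MAP1B. Only comp38745_c0_seq1 had reads enough to compare between the groups, with 590 reads over the 5 libraries. MUSK and MAP1B had 11 and 10 reads in all, at most 4 in a library, and were too low in reads to compare. The counting interval of their ratio between the groups was very wide and included no difference.

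The samples were longissimus muscle of female hybrid goats (Boer goat sire, Guan Zhong dairy goat dam), which were about 5 months old when the experiment began and were slaughtered on day 50. The control group was 2 untreated goats (control 1 and control 3), and the ovariectomized group was 3 goats whose ovaries were removed at the start (ovariectomized 2, 4 and 5). Each animal gave 1 library of polyA RNA, and fodder was alike in all 5. The study describes body weight as similar when the kids were divided into the groups. A further control sample did not pass the study's RNA quality requirements and was not sequenced, so every comparison rests on 2 animals against 3.

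A unigene is a transcript assembled from the reads without a genome, so it has a length but no chromosome position. The level is given as RPKM, the reads on a unigene per kilobase of its length and scaled to the reads counted in the library. The libraries held between 36738470 and 39504529 counted reads. Control 3 and ovariectomized 5 had reads on 81922 and 70704 unigenes, fewer than the 91215 to 100053 of the other libraries. In whole muscle, a change in the number of cells of a type and a change in RNA per cell cannot be told apart. The labelled tissue was not checked against muscle marker genes, because only the study's qRT-PCR list pairs unigenes with symbols here.

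MUSK encodes the receptor tyrosine kinase of the muscle surface that organises acetylcholine receptor clusters at the junction, and MAP1B encodes a microtubule-associated protein of growing axons. The symbols rest on the study's match of each unigene to a known transcript, and RefSeq lists a protein-coding goat gene under each of them. The primers designed by the study for the qRT-PCR assays of these unigenes are shown because the sequences of the short fragments were not at hand. Whether the primers lie within those fragments was not checked. All bases are in lower case since no part of a primer is singled out.
MUSK forward: taaccctcactactcttccttc
MUSK reverse: agcatcttcactgccacc
MAP1B forward: agacccatgagaaacagcagg
MAP1B reverse: tgcggctgaccttggttgtt
The MUSK primers were 22 and 18 bases long with a GC content of 45.5% and 55.6%, and the MAP1B primers were 21 and 20 bases long with a GC content of 52.4% and 55.0%.

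The unigenes were placed in further classes by the annotation, listed here as labels and not as results. For comp38745_c0_seq1 these included acetylcholinesterase activity, the choline metabolic process, cholinergic synaptic transmission, the presynaptic and the postsynaptic membrane, and anchoring to the membrane. Acetylcholinesterase is the enzyme that hydrolyses acetylcholine in the synaptic cleft, but the class does not name the gene of this unigene. MUSK stood in receptor clustering, neuromuscular junction development, and the responses to muscle activity, electrical stimulus and axon injury. MAP1B stood in microtubule bundle formation, growth cone, positive regulation of axon extension and the response to estradiol stimulus. Of the 3, only comp38745_c0_seq1 stood in both the neuromuscular junction class, which it shares with MUSK, and the synapse assembly class, which it shares with MAP1B.

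The study selected these unigenes from the same 5 libraries by a log2 ratio of RPKM over 1, in either direction, and a p under 0.05. Its methods do not say how the libraries of a group were combined. The values by group below are therefore a description. That the groups lie apart is fixed by the selection, and any call of these unigenes between the groups comes from the values that selected them. With group means, as taken here, the log2 ratio of RPKM was 1.03 for comp38745_c0_seq1, 1.44 for MAP1B and 2.80 for MUSK. By this measure comp38745_c0_seq1 lay just inside the threshold.

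comp38745_c0_seq1 is 2262 bp long and longer than 88.9% of the unigenes. It had 86 reads in control 1 and 62 in control 3, against 171, 151 and 120 in ovariectomized 2, 4 and 5. Control 1 stood at 0.962 RPKM and control 3 at 0.724 RPKM, and ovariectomized 2, 4 and 5 stood at 1.98, 1.72 and 1.44 RPKM. Every ovariectomized library was above both control libraries. The mean was 0.843 ± 0.168 RPKM (SD, n = 2) in control and 1.72 ± 0.270 RPKM (SD, n = 3) in ovariectomized ewes, a ratio of 2.04. The ratio of the summed reads per counted read, 148 in control and 442 after ovariectomy, was 2.03, with an exact 95% interval of 1.68 to 2.47 that covers counting error only.

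The spread between animals of a group was set beside the counting error of each library. The exact 95% Poisson intervals were 0.770 to 1.19 RPKM in control 1 and 0.555 to 0.928 in control 3, which overlap each other. That of ovariectomized 2 began at 1.70 and that of ovariectomized 5 ran from 1.20 to 1.73, so these overlap only at their ends. The interval of ovariectomized 5 began just above the end of that of control 1.

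**Figure D1:**
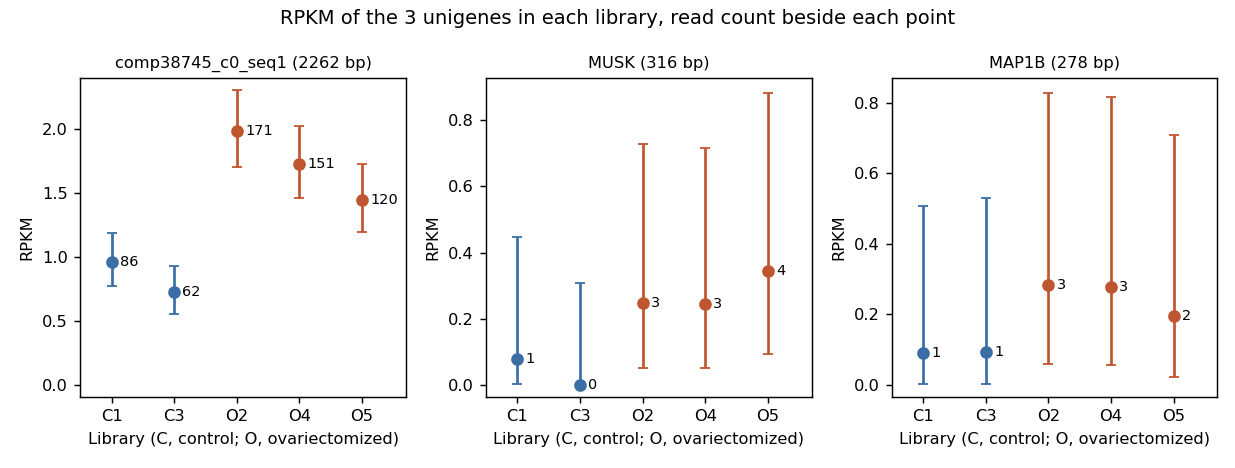
RPKM (vertical axis) of comp38745_c0_seq1, MUSK and MAP1B in control 1 and 3 (C1, C3, blue) and ovariectomized 2, 4 and 5 (O2, O4, O5, orange), with exact 95% Poisson intervals of the counts as bars and the read count beside each point. The 3 ovariectomized libraries of comp38745_c0_seq1 lie at 1.44 to 1.98 RPKM above both control libraries, while the bars of the groups overlap widely for MUSK and MAP1B, where a library had 4 reads or fewer.

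The scaling of the libraries changed how the animals of a group lay to each other more than it changed the distance between the groups. TMM factors, which rescale library sizes so that most unigenes agree between libraries, were 1.11 for control 1, 1.25 for ovariectomized 2 and 1.07 for ovariectomized 4, but 0.832 for control 3 and 0.811 for ovariectomized 5, the same libraries that had reads on fewer unigenes. Divided by these factors, the level of comp38745_c0_seq1 was 0.869 in control 1 and 0.871 in control 3, and 1.58, 1.62 and 1.78 in ovariectomized 2, 4 and 5. The highest control was 1.33 times the lowest by RPKM and almost equal to it after TMM scaling. The highest ovariectomized library was 1.37 times the lowest by RPKM and 1.13 times after it. Ovariectomized 5 was the lowest of its group by RPKM and the highest after TMM scaling. The lowest ovariectomized library was then 1.82 times the highest control, and the log2 ratio of the group means was 0.93, below the study's threshold of 1. Factors computed after edgeR's filterByExpr gave a log2 ratio of 0.97 and DESeq2 size factors gave 0.98, both also below 1. The part of library composition in the value was not tested.

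**Figure D2:**
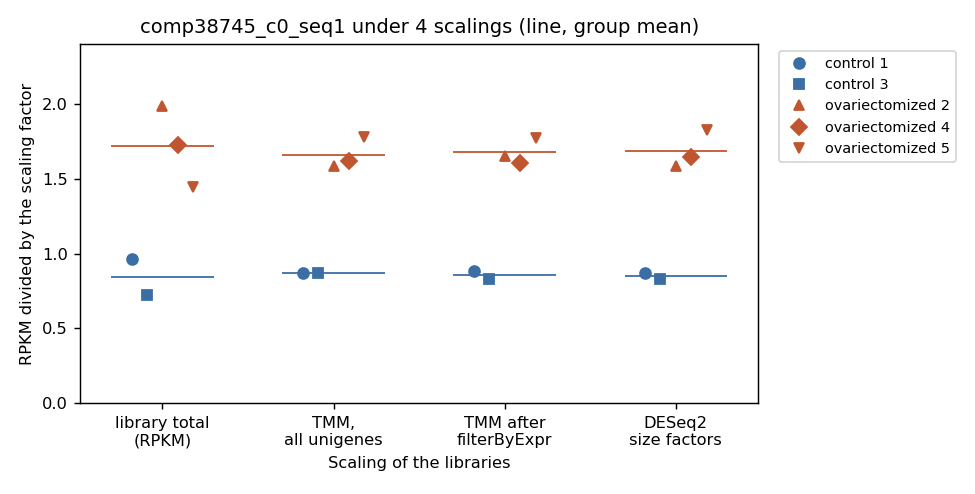
Level of comp38745_c0_seq1 (RPKM divided by a scaling factor, vertical axis) in the 5 libraries under 4 scalings, with a line at each group mean (control blue, ovariectomized orange). The control mean stays between 0.843 and 0.870 and the ovariectomized mean between 1.66 and 1.72, while the libraries of a group lie closer together under the 3 scalings other than the library total.

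By RPKM, control 1 against ovariectomized 2 and 4, the 3 libraries with TMM factors above 1, gave a ratio of 1.93, and control 3 against ovariectomized 5 gave 1.99. With 1 or 2 libraries on a side these are values without a replicate check. Without control 1 the ratio was 2.37, and without control 3 it was 1.78.

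In the edgeR fit of all unigenes, the log2 fold change after ovariectomy was 0.93 for comp38745_c0_seq1. Its standard error, worked back from the fold change and the test statistic, was 0.50. This value and its error come from the contrast by which the unigene was chosen.

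MUSK was represented by a unigene of 316 bp, where 1 read was worth between 0.0801 and 0.0861 RPKM. Control 1 held 1 read and control 3 none, while ovariectomized 2, 4 and 5 held 3, 3 and 4. The RPKM was 0.0801 and 0 in control and 0.249, 0.245 and 0.345 after ovariectomy. The point values did not overlap, but the group totals were 1 read and 10 reads. Their ratio per counted read was 6.81 with an exact 95% interval of 0.969 to 296, which spans no difference and a very large one (counting error only). Against ovariectomized 2 and 4, control 1 alone gave a ratio of mean RPKM of 3.09, where all libraries gave 6.98. The exact 95% Poisson interval of control 3 reached 0.308 RPKM, above the values of ovariectomized 2 and 4.

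MAP1B was represented by a unigene of 278 bp, where 1 read was worth between 0.0911 and 0.0979 RPKM. Both control libraries held 1 read, and ovariectomized 2, 4 and 5 held 3, 3 and 2. The RPKM was 0.0911 and 0.0950 in control and 0.283, 0.279 and 0.196 after ovariectomy, and the lowest ovariectomized library differed from the controls by 1 read. The group totals of 2 and 8 reads gave a ratio per counted read of 2.72, with an exact 95% interval of 0.544 to 26.3 that includes no difference. The standard deviation of the control RPKM, 0.00282 (n = 2), reflects only that both libraries had 1 read. Since no further unigene is paired with either symbol here, these are the reads of short assembled fragments and not of the whole MUSK or MAP1B transcripts.

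Level per length was not used in the selection, so it could be compared between the unigenes within a library. The RPKM of comp38745_c0_seq1 exceeded that of MUSK in 5 of 5 libraries, by a mean of 1.18 ± 0.418 (SD, n = 5), with differences from 0.724 to 1.73. It exceeded that of MAP1B in 5 of 5 libraries, by a mean of 1.18 ± 0.431 (SD, n = 5), with differences from 0.629 to 1.70. The exact two-sided permutation test over sign flips, with the libraries of both groups pooled, gave p = 0.0625 in both comparisons (0.0625 after Benjamini-Hochberg adjustment over the 2). That is the smallest p that 5 libraries can give, so the test could not pass 0.05 and the differences stand as values. MUSK was above MAP1B in 1 of 5 libraries. Their mean RPKM over the 5 libraries, 0.184 and 0.189, differed by less than 1 read in 1 library would add to such a mean.

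Among all unigenes, 85.7% had a lower mean RPKM than comp38745_c0_seq1 and 86.7% had fewer reads. Among the 15282 unigenes of 2000 bp or longer, 46.6% had a lower mean RPKM, so its level of 1.37 RPKM over the 5 libraries lay near the median of 1.53 RPKM of that class, which has no upper limit of length. MUSK and MAP1B lay near the middle of the whole table, with 47.4% and 48.8% of unigenes at a lower mean RPKM. Few reads were common: 44.5% of all unigenes had 11 reads or fewer over the 5 libraries, and the median was 14 reads. Each of the 3 unigenes was alone in its assembly component, as 79.2% of all unigenes were, so no reads were divided between them and a named variant of the same component.

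**Figure D3:**
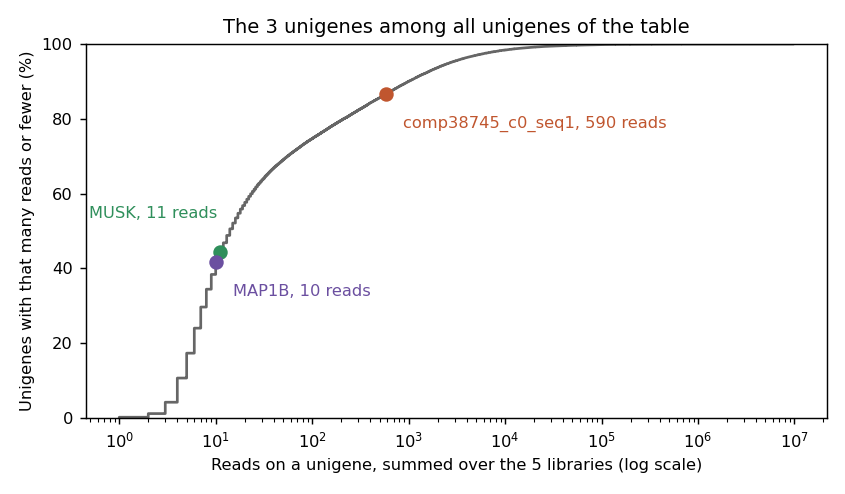
Share of all 118211 unigenes (vertical axis, percent) that had a given number of reads or fewer over the 5 libraries (horizontal axis, log scale), with the 3 unigenes marked. comp38745_c0_seq1 with 590 reads lies in the upper part of the curve, and MUSK with 11 and MAP1B with 10 reads lie on its steep part, where 6.10% of all unigenes had 10 or 11 reads.

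The background of such patterns was counted over the whole table. All 3 unigenes had RPKM values that did not overlap between the groups, higher after ovariectomy, a pattern held by 5.01% of all unigenes, while 5.19% held the opposite pattern. Among the 7216 unigenes with 10 or 11 reads in all, as MUSK and MAP1B had, 6.78% had non-overlapping values higher after ovariectomy and 6.68% lower. A ratio of mean RPKM over 2, or reads after ovariectomy only, was found in 23.8% of these 7216 unigenes. Among the 28172 unigenes with at least 10 reads in every library, as comp38745_c0_seq1 had, 5.17% had non-overlapping values higher after ovariectomy and 2.88% lower, and 2.13% had a ratio over 2. After TMM scaling 3.33% of them did not overlap and were higher. These shares stand beside unigenes that were chosen for this pattern, and nothing is read from the comparison.

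The calls that follow come from the contrast by which the study selected the 3 unigenes, so they are given for completeness beside the share of all unigenes called, and nothing is read from them. None of the 3 unigenes had an adjusted p under 0.05 in edgeR's quasi-likelihood test, where 0.446% of unigenes did in either direction and 0.0897% did and were higher. At an unadjusted p under 0.05, edgeR called 0 of the 3 (0.832% of unigenes were called and higher). With filterByExpr, which kept only comp38745_c0_seq1, edgeR called 1 of 1 without adjustment (0.478% of unigenes), and the restriction to at least 10 counts in every library also called 1 of 1 (0.593%). DESeq2 called 1 of 3 without adjustment (0.284%), limma on log2(RPKM + 1) called 1 of 3 (0.244%), and limma on log2(RPKM + 0.1) and edgeR without TMM factors called 0 of 3 (0.543% and 0.557%). The unigene called was comp38745_c0_seq1 each time, and no setting gave any of the 3 an adjusted p under 0.05. DESeq2 gave MUSK and MAP1B no adjusted p at all, and the 2 filters left both out. The share of unigenes that had one and were higher was 0.0118% in DESeq2, 0.00677% in edgeR without TMM factors and 0.000846% in limma on log2(RPKM + 0.1). With filterByExpr 0 unigenes of the whole table had one, and 339 were under 0.05 without adjustment.

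Other unigenes that the study had selected from the same libraries stood in related classes, and they were taken as 3 lists. The list of synapse and nerve cell classes (synaptic transmission, axon guidance, neurexin binding, neurotrophin receptor activity and the like) held 15 unigenes, 6 with a higher and 9 with a lower mean RPKM after ovariectomy. The list of microtubule classes held 7, of which 1 was higher and 6 were lower, and the list of muscle classes held 3, of which 2 were higher and 1 lower. Over the 23 distinct unigenes, 9 were higher and 14 lower, where 65290 of all 118211 unigenes were higher. The study chose these unigenes on the same samples, and the lists were put together here from its classes, so the counts are not independent evidence of a direction.

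None of the 23 unigenes reached 10 reads in any library. The highest count was 7, and in 13 of the 23 no library had more than 3 reads. The median highest count was 3, against 7 over all unigenes, and the median length was 273 bp against 382 bp. No reads were counted in control for 8 of them and none after ovariectomy for 5, where 8567 and 4551 of all 118211 unigenes had none. By edgeR's unadjusted p under 0.05, 3 of the 23 were called higher and 0 lower, and 0 had an adjusted p under 0.05. These 3 had no reads in control and at most 6 in an ovariectomized library. Without TMM factors edgeR also called 3 higher and 0 lower, beside 658 and 1498 in the whole table. The split otherwise depended on the fit. DESeq2 called 2 of the 23 higher and 0 lower, beside 336 higher and 482 lower in the whole table. With limma on log2(RPKM + 0.1) it was 3 higher and 4 lower beside 642 and 996, and on log2(RPKM + 1) it was 0 higher and 7 lower beside 288 and 1214. In edgeR 0 of the 23 were called in either direction without control 1, without control 3 or without ovariectomized 4, where 2107, 3397 and 2325 unigenes of the whole table were called. Without ovariectomized 2 edgeR called 2 higher and 1 lower (3231 in the whole table), and without ovariectomized 5 it called 2 higher and 0 lower (4100). In the whole table edgeR called 983 unigenes (0.832%) higher and 2237 lower without adjustment, but with filterByExpr it called 189 higher and 150 lower, and with the minimum of 10 counts 167 higher and 92 lower, so the balance turned once low counts were left out. An adjusted p under 0.05 was given to 527 unigenes (0.446%) by edgeR, to 117 without control 1 and to 43 by DESeq2. The list was selected on this contrast, so its counts test nothing. comp38745_c0_seq1 was thus the 1 unigene, of the 3 members and the 23 listed, that had more than 7 reads in any library.

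Of the 23 unigenes, 4 are paired with a symbol. LAMA1, the laminin alpha 1 chain of basement membranes, was counted at 2 reads in both controls and at none in the ovariectomized ewes. CACNA1H, a T-type calcium channel subunit, was counted at 7 and 6 reads in the controls and at 3, 0 and 0 in ovariectomized 2, 4 and 5. NCOR1, a nuclear receptor corepressor, was counted at 5 and 6 reads in the controls and at 0, 3 and 2 in ovariectomized 2, 4 and 5. HDAC9, a histone deacetylase expressed in muscle, had none in control and 2 in each ovariectomized library. The groups lie a few reads apart in each of the 4.

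**Figure D4:**
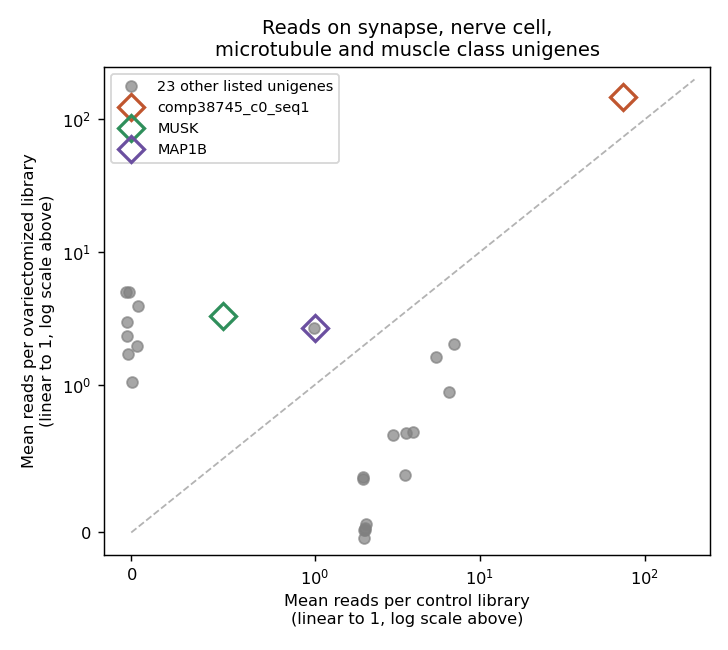
Mean reads per control library (horizontal axis) and per ovariectomized library (vertical axis), linear up to 1 and on a log scale above, for the 3 unigenes (open diamonds) and the 23 other listed unigenes (grey points, shifted slightly so that equal values can be seen). Only comp38745_c0_seq1 lies far from the origin, and the dashed line marks equal means.

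The unigenes whose pattern over the 5 libraries was most like that of comp38745_c0_seq1 were sought among 28171 unigenes with at least 10 reads in every library, by Pearson r of log2(RPKM + 0.1). The highest r belonged to comp44907_c1_seq1 (2527 bp, r = 0.999) and comp43484_c0_seq15 (3159 bp, r = 0.999), neither paired with a symbol. The first had an RPKM of 8.97 and 8.18 in control and 11.1, 10.7 and 9.96 in ovariectomized 2, 4 and 5. The second had 0.978 and 0.887 in control and 1.33, 1.23 and 1.15 after ovariectomy. Both had the same order of libraries as comp38745_c0_seq1, with smaller ratios between neighbouring libraries. An r over 0.95 was found for 129 unigenes (0.458%), and the 5 points of each share their libraries and the scaling by library total.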

How the data were processed

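Goat muscle libraries (2 control, 3 ovariectomized) were grouped by the sample labels. Reads were cleaned and assembled with Trinity by the authors, who then mapped them to the unigenes as single ends with Bowtie 0.12.8. The submitters' processing notes also name CASAVA 1.8. The deposited tables give each unigene's length, its raw count in each library and the RPKM the authors computed from it. They also deposited a p-value column and a yes or no column of their own comparison, which were not used. A second deposited table held identical counts. How multiply mapping reads were counted is not given in the sources used here. The tables had 0 columns belonging to another series.

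All 118211 unigenes, each with 1 read or more, entered an edgeR 4.0.16 fit of the counts in R 4.3.3, with TMM factors and the two-sided quasi-likelihood test, adjusted by Benjamini-Hochberg. The alternatives were DESeq2 1.42.0, library sizes without TMM factors, the filterByExpr filter, a minimum of 10 counts per library, limma 3.58.1 after adding 0.1 or 1 to the RPKM before the log2, and each library left out. The fits were also run on simulated counts in which only unigenes with many more reads than MUSK or MAP1B were changed. That run does not bear on unigenes with few reads. Exact Poisson and exact conditional binomial intervals (95%) and exact permutation tests were made with Python 3.11.15, scipy 1.17.1, numpy 2.4.6 and pandas 2.3.3, and plots with matplotlib 3.10.9. Intervals cover counting error only. Between 36738470 and 39504529 reads were counted per library.

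The members and lists were chosen with earlier results of these data known. The unigenes named are the 3 members, listed unigenes that the study pairs with a symbol, and the 2 unigenes most like comp38745_c0_seq1 by Pearson r. No library was dropped. The qRT-PCR results were not analysed here. The study's assays included every gene named here by symbol. It reports that all assayed genes changed in the same direction as in its RNA-seq, with only part of them significant.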

Additional observations from a re-analysis of the deposited data

How the results depend on the processing

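The log2 fold change of comp38745_c0_seq1 in edgeR was 0.93 and lay between 0.88 and 0.99 with 1 library left out. Among the other fits it moved most in limma on log2(RPKM + 1), to 0.56, where the pseudocount shrinks the change of low levels. That of MUSK was 2.53 and became 1.49 in limma on log2(RPKM + 0.1) and 0.30 on log2(RPKM + 1). It lay between 1.81 (without control 3) and 4.78 (without control 1, where control has no reads and the value depends on the prior count) with 1 library left out. That of MAP1B was 1.23 and became 0.86 and 0.20 in the same limma fits, and lay between 1.01 and 1.44 with 1 library left out. Both were removed by filterByExpr and by the minimum of 10 counts, which give them no value. None of these 3 changed direction.

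The ratio of mean RPKM of comp38745_c0_seq1 lay between 1.78 and 2.37 with 1 library left out, that of MUSK between 3.49 and 7.41, and that of MAP1B between 2.55 and 3.02. For MUSK control 1 with ovariectomized 2 and 4 gave 3.09, and control 3 has no reads, so no ratio was formed without control 1 or for control 3 with ovariectomized 5. For MAP1B control 3 with ovariectomized 5 gave 2.06. The level difference of comp38745_c0_seq1 over MUSK lay between 1.05 and 1.30 RPKM with 1 library left out, and that over MAP1B between 1.05 and 1.32, with 0.125 as the smallest p that 4 libraries can give.

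The number of unigenes with an adjusted p under 0.05 was 527 in edgeR, 43 in DESeq2, 122 without TMM factors, 0 with filterByExpr, 0 with at least 10 counts in every library, and 6 in each limma fit. It lay between 117 (without control 1) and 681 (without ovariectomized 5) with 1 library left out. Where a control was left out, the lone control library is assumed to vary like the others. No paired analysis was made, because the study divided the goats at random between the groups and the replicate numbers do not mark pairs.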
